A study of Homo sapiens with 54 samples.

Results

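The comparison described here asked which genes changed when olaparib, an inhibitor of the DNA damage-responsive enzymes PARP-1 and PARP-2, was added to the higher of 2 doses of cisplatin (CDDP) in MDA-MB-468 cells. MDA-MB-468 is an established triple negative breast cancer (TNBC) line that the labels list as BRCA1 wild type. The libraries were chosen by their titles as 3 replicates of olaparib + 2.5 µM cisplatin and 3 replicates of 2.5 µM cisplatin, which together make 6 of the 54 libraries of the study. Both groups were parental cells grown in the same medium and treated overnight with 2.5 µM CDDP, one with and one without 3 µM olaparib. The treatment protocol prints these doses in mM, and the study text gives the higher CDDP dose as 2 µM, so the doses here are those of the library titles and the paper. The study also held parental MDA-MB-468 cells that were left untreated, given 3 µM olaparib alone, or given 1 µM CDDP with or without olaparib, at 3 libraries each. Its other libraries came from olaparib-resistant (OlaR) MDA-MB-468 cells and from the BRCA1 mutant line SUM1315. MDA-MB-468 is a single cell line, and the labels do not say whether replicates were separate cultures. The p-values thus measure only the spread between libraries within conditions, which may be technical. This spread was pooled over all 27 MDA-MB-468 libraries, those of OlaR cells among them.

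CDDP binds to DNA and cross-links its bases, mostly within a strand and less often between strands, and these lesions stall replication forks and RNA polymerase. PARP-1 binds to DNA breaks and builds chains of poly(ADP-ribose), which recruit repair factors. Olaparib blocks this activity and holds PARP proteins on DNA, and cells that cannot repair breaks by homologous recombination are especially sensitive to it. PARP-1 also acts in transcription, where it modifies chromatin proteins and transcription factors.

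RNA was measured with 3′ end sequencing, in which each transcript gives reads near its poly(A) tail. The 6 libraries held 6174804 to 8222127 reads in genes. Values are adjusted read counts, that is, the reads of a gene after the authors scaled every library to a common normalised size, which is not a common total. The cells kept the markers of their line, with EGFR at 2332 to 2692 and EPCAM at 2635 to 3038 adjusted reads across the 6 libraries. PGR had no read in any of them, while ESR1 (33.0 to 50.4) and ERBB2 (16.1 to 59.2) were low. Markers of leukocytes (PTPRC, CD3E) had no read, CD68 had at most 3 reads in a library, PECAM1 had 6.03 to 16.4 adjusted reads, COL1A2 had none and COL1A1 had 46.4 to 78.9. In RNA from whole cultures, fewer cells of a kind and less RNA per cell cannot be told apart.

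Olaparib added to 2.5 µM CDDP lowered more genes than it raised, and most of the changes were small. Of 13012 genes tested, 602 rose (4.63%) and 949 fell (7.29%) at an adjusted p of 0.05 or below (limma with Benjamini-Hochberg adjustment over all genes tested). The median absolute log2 fold change (log2FC) of these genes was 0.36, and 1494 of them changed less than 2-fold. With the study's further limit of a 2-fold change, 57 genes were differentially expressed (DEGs), of which 17 were higher (0.131%) and 40 lower (0.307%). The 3 libraries of the combination lay wholly above those of CDDP alone for 1805 genes (13.9%) and wholly below for 2088 (16%). The 17 higher DEGs and 38 of the 40 lower DEGs were among them, and KRT20 and PDE4A overlapped. The median log2FC of all genes tested was 0.004. Of the genes that passed, 38.8% were higher. In limma-voom on recovered reads this share was 42.3% with the authors' library sizes and 60.2% with library totals, under which 1448 of 2405 genes rose and the median log2FC was 0.06. Leaving out 1 library gave 13 to 29 higher and 33 to 63 lower DEGs, with 29 higher without CDDP replicate 1 and 63 lower without replicate 1 of the combination. The number that passed was lowest without replicate 3 of the combination, at 1022, of which 363 rose.

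**Figure D1:**
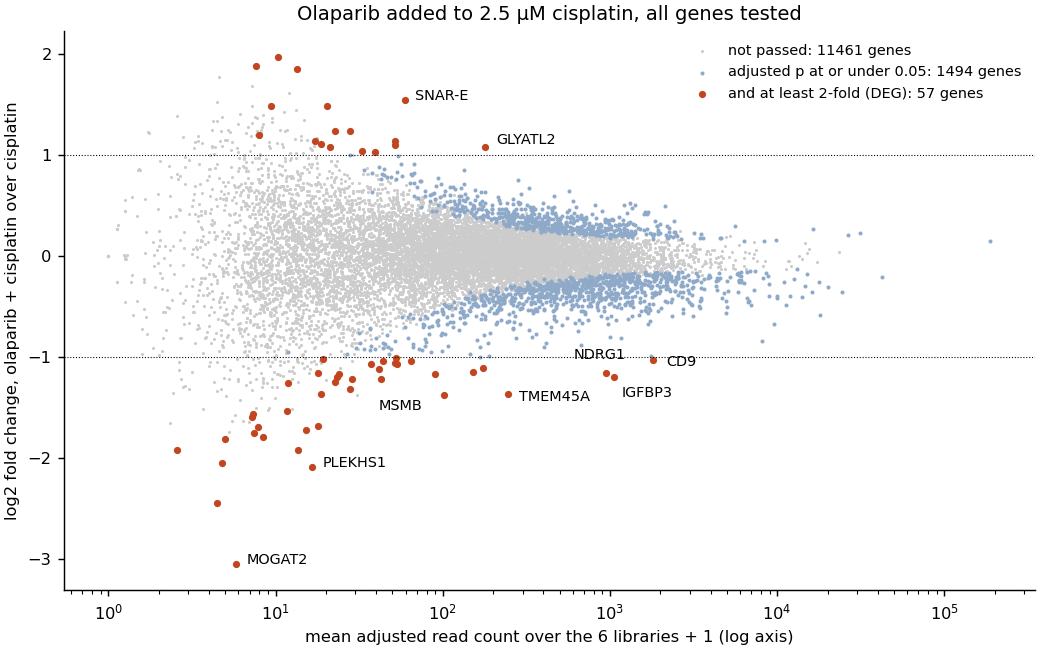
Each point is 1 of the 13012 genes tested, placed by its mean adjusted read count over the 6 libraries (log axis) and its log2 fold change for olaparib added to 2.5 µM cisplatin. The 40 lower DEGs (red, below the lower dotted line) range from genes of few reads such as MOGAT2, whose plotted value depends on the added constant of 1, to CD9, NDRG1 and IGFBP3 with high counts, whereas the 17 higher DEGs all have lower counts than these.

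The 6 DEGs described first were all lower, and 3 of them, NDRG1, IGFBP3 and CD9, had over 1000 adjusted reads with CDDP alone. NDRG1, a gene known to be induced by hypoxia and other stress, had 1288, 1329 and 1287 adjusted reads in the CDDP libraries and 588, 587 and 569 in the combination libraries. The libraries did not overlap, and the log2FC was -1.16 ± 0.06 (SE, adjusted p = 3.12e-22). IGFBP3, a secreted protein that binds insulin-like growth factors, fell from 1448, 1543 and 1434 to 645, 630.0 and 657, again without overlap (log2FC -1.19 ± 0.06, adjusted p = 6e-22). Fold changes are on the scale of log2(value + 1), which understates the change of genes with few reads. TMEM45A, a transmembrane protein gene, fell from 355, 365.5 and 337 to 155, 127 and 127.5 (log2FC -1.37 ± 0.10, adjusted p = 1.22e-14). All 3 combination libraries were below all 3 CDDP libraries. ANGPTL4, a secreted inhibitor of lipoprotein lipase, had 217, 198 and 209 adjusted reads with CDDP and 108.7, 87.1 and 85.7 with the combination (log2FC -1.15 ± 0.14, adjusted p = 3.73e-08). MSMB, which encodes the secreted protein beta-microseminoprotein, had 152.9, 119.7 and 163.7 against 55.6, 56.4 and 52.5 (log2FC -1.38 ± 0.20, adjusted p = 8.4e-07). CD9, a membrane protein of the tetraspanin family, had 2379, 2565 and 2375 against 1424, 1086 and 1093 (log2FC -1.03 ± 0.11, adjusted p = 5.01e-10). NDRG1, IGFBP3, TMEM45A, ANGPTL4 and MSMB were DEGs in every fit that left out 1 of the 6 libraries. CD9 was close to the 2-fold limit and was below it without CDDP replicate 2 or replicate 2 or 3 of the combination, with a smallest log2FC of -0.97.

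In GENCODE release 44 on GRCh38, IGFBP3 spans chr7:45912245-45921874 on the minus strand, TMEM45A spans chr3:100492619-100577444 on the plus strand, and ANGPTL4 spans chr19:8363289-8374370 on the plus strand. RefSeq promoter windows of 300 bases, from 250 before to 50 after the annotated start on GRCh38.p14, are shown for 3 of these genes because they fell together. The windows lie at chr3:100492369-100492668 for TMEM45A, chr19:8363905-8364204 for ANGPTL4 and chr7:45921223-45921522 for IGFBP3, and each is written on the strand of its gene. Capitals mark ACGTG or GCGTG on either strand (CACGT or CACGC on the strand shown), the core letters of the hypoxia response element.
TMEM45A: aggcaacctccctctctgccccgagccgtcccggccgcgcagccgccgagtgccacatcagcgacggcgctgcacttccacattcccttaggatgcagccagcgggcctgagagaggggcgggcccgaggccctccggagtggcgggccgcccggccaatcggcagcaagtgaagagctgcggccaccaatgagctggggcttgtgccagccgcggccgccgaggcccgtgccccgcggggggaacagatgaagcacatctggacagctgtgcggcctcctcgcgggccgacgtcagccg
ANGPTL4: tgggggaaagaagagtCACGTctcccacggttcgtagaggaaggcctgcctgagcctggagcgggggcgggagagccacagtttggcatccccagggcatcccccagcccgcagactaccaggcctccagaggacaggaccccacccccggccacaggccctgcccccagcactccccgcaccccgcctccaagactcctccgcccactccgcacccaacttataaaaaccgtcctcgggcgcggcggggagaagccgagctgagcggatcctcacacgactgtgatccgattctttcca
IGFBP3: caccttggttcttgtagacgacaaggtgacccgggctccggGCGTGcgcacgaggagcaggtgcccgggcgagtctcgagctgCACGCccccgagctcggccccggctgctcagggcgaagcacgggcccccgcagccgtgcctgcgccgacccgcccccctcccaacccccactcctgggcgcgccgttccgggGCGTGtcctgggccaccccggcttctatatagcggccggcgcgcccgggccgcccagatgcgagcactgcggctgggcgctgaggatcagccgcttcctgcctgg

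The window of ANGPTL4 held 1 match, that of IGFBP3 held 3 and that of TMEM45A held none. At least 1 match stood in 48.4% of all 35116 promoter windows and in 60.7% of the 14225 windows of genes tested, so a match alone is common. A match is a description of the letters in a window and not a binding site, and its absence says only that these letters are not in that window.

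The other lower DEGs with a mean of at least 20 adjusted reads and no overlap between the conditions included several genes of secreted and surface proteins. SERPINA3, the protease inhibitor alpha-1-antichymotrypsin, had 103.7, 156.8 and 110.5 adjusted reads with CDDP and 68.8, 43.7 and 50.7 with the combination (log2FC -1.17 ± 0.18). TF, which encodes the iron carrier transferrin, had 31.0, 36.0 and 50.4 against 17.5, 17.6 and 13.1 (log2FC -1.21 ± 0.28). ISLR, a secreted protein with leucine-rich repeats, had 51.1, 64.8 and 59.4 against 23.4, 27.9 and 22.4 (log2FC -1.22 ± 0.23). All 3 of these were low in every combination library. CD14, a co-receptor for bacterial lipopolysaccharide, had 31.1, 49.95 and 34.0 against 8.04, 20.9 and 17.7 (log2FC -1.32 ± 0.44). The chemokine receptor gene CCR1 had 25.5, 32.2 and 37.3 against 7.41, 18.8 and 16.9 (log2FC -1.17 ± 0.40). CD14 and CCR1 had adjusted p of 0.0409 and 0.0483, close to the threshold, and both lost the call without any 1 of 5 of the 6 libraries, all but replicate 2 of the combination. Their smallest log2FC were then -0.93 and -0.78, both without replicate 1 of the combination, which held the lowest value of each gene. Both genes are known from monocytes, and the general leukocyte marker PTPRC had no read in any of the 6 libraries.

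PADI3, an enzyme that converts arginine to citrulline in epithelial proteins, had 200.6, 273 and 236 adjusted reads against 112.6, 120.9 and 92.9 (log2FC -1.11 ± 0.14). VIM, the mesenchymal intermediate filament vimentin, had 29.6, 29.7 and 32.9 against 14.8, 15.8 and 7.99 (log2FC -1.24 ± 0.33). KREMEN2, a membrane receptor for Dickkopf inhibitors of Wnt signalling, had 42.6, 54.2 and 51.8 against 18.0, 23.4 and 28.8 (log2FC -1.07 ± 0.28). Both conditions were separate for each of these genes, although VIM and KREMEN2 stood at few reads. The potassium channel gene KCNK3 had 28.8, 34.9 and 29.1 against 17.1, 17.3 and 7.04 (log2FC -1.20 ± 0.36). FAM131A had 49.3, 84.5 and 78.4 against 41.8, 41.8 and 19.2 (log2FC -1.07 ± 0.27). The antisense RNA gene SH3PXD2A-AS1 had 55.9, 43.4 and 69.3 against 23.4, 26.3 and 25.1 (log2FC -1.12 ± 0.27), and whether the counting used strand is not given in the sources used here, so its reads may include those of the opposite strand. The call was lost for VIM without replicate 3 of the combination (log2FC -0.96, adjusted p = 0.0932), for SERPINA3 without CDDP replicate 2 (-0.99) and for SH3PXD2A-AS1 without CDDP replicate 3 (-0.96). It was also lost for KCNK3 without CDDP replicate 2 or replicate 3 of the combination (smallest -0.81), for KREMEN2 without CDDP replicate 2 or replicate 1 of the combination (smallest -0.90) and for FAM131A without CDDP replicate 2 or 3 or replicate 3 of the combination (smallest -0.71). PADI3, ISLR and TF kept it in all 6 such fits.

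**Figure D2:**
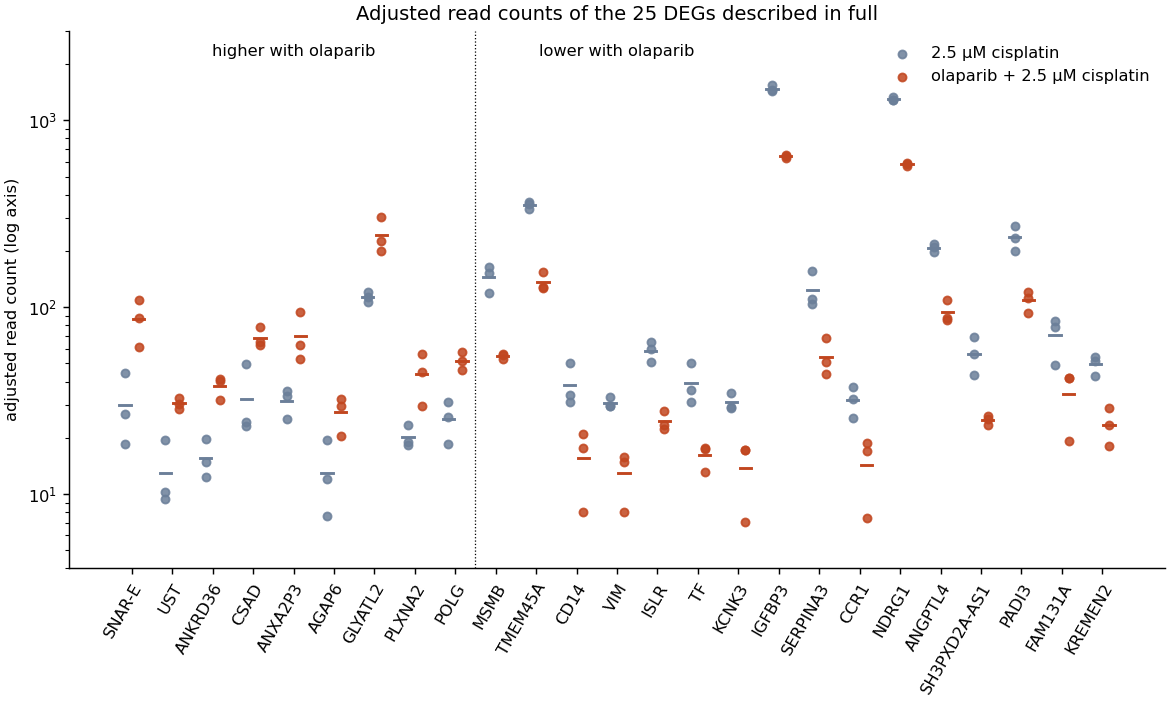
Adjusted read counts (log axis) in each of the 3 libraries of 2.5 µM cisplatin (blue) and of olaparib + 2.5 µM cisplatin (red) for the 9 higher DEGs and the 16 lower DEGs of largest change among those with a mean of at least 20 and no overlap. Horizontal bars are the means of 3 libraries, and NDRG1 and IGFBP3 are the only genes of the 25 above 1000 with cisplatin, and both lie below 700 with the combination.

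The higher DEGs were at low to moderate counts, and 9 of them met the same rule. GLYATL2, which belongs to a family of glycine acyltransferases, had 113.4, 120.2 and 107 adjusted reads with CDDP and 305, 200.2 and 227 with the combination. Its log2FC was 1.08 ± 0.14 (adjusted p = 1.01e-07), and without replicate 1 of the combination, its highest library, it was 0.90. CSAD, an enzyme of taurine synthesis, had 23.1, 49.7 and 24.4 against 62.5, 78.7 and 64.9 (log2FC 1.14 ± 0.25). UST, a sulfotransferase that acts on glycosaminoglycans, had 9.43, 10.2 and 19.3 against 30.5, 28.5 and 32.7 (log2FC 1.24 ± 0.32). POLG, the catalytic subunit of the mitochondrial DNA polymerase, had 31.2, 25.8 and 18.6 against 45.9, 57.6 and 51.8 (log2FC 1.03 ± 0.27). These 4 genes did not overlap between the conditions. PLXNA2, a receptor for semaphorins, had 19.0, 18.3 and 23.3 against 29.7, 56.5 and 45.2 (log2FC 1.04 ± 0.32, adjusted p = 0.0249). The call was lost for CSAD without CDDP replicate 1 or 3 (smallest log2FC 0.95), for POLG without CDDP replicate 3 or replicate 2 of the combination (smallest 0.84) and for PLXNA2 without CDDP replicate 1 or 2 or replicate 2 or 3 of the combination (smallest 0.84).

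The remaining 4 of these genes belong to families of similar copies, whose reads the counting may have split or shared, and are uncertain as single genes. SNAR-E, a member of a family of small noncoding RNAs, had 44.3, 18.5 and 26.9 adjusted reads with CDDP against 61.1, 87.9 and 109.7 (log2FC 1.54 ± 0.24, adjusted p = 3.01e-06). ANKRD36 had 12.3, 19.7 and 14.9 against 31.9, 41.3 and 40.2 (log2FC 1.24 ± 0.31), and both it and SNAR-E kept the call in every fit that left out 1 library. The pseudogene ANXA2P3 had 33.6, 35.7 and 25.2 against 52.6, 63.0 and 93.95 (log2FC 1.10 ± 0.25). AGAP6 had 19.4, 12 and 7.64 against 29.4, 20.5 and 32.1 (log2FC 1.08 ± 0.36, adjusted p = 0.0376). ANXA2P3 lost the call without CDDP replicate 3 or replicate 3 of the combination (smallest log2FC 0.86), and AGAP6 without CDDP replicate 2 or 3 or replicate 1 or 3 of the combination (smallest 0.78).

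Of the other DEGs, 27 had a mean under 20 adjusted reads, 19 of them lower and 8 higher. PLEKHS1 had 31.2, 22.3 and 23.1 with CDDP against 8.85, 3.70 and 4.05 (log2FC -2.09 ± 0.36, adjusted p = 2.88e-05). PTGS1, which encodes the cyclooxygenase COX-1, had 28.7, 17.4 and 15.5 against 5.71, 3.87 and 4.13 (log2FC -1.92 ± 0.47). The acyltransferase gene MOGAT2 had 10.8, 9.67 and 7.49 with CDDP and no read in 2 of the combination libraries. NCAM1 had 2 to 6 reads per CDDP library and none with the combination, and no fold change is given for it. MOGAT2, NCAM1, PRELP, LEMD1 and DYSF had at most 2 reads in any combination library, so that the size of their change is poorly known. The lower DEGs with a mean of at least 20 outside those described were GABRP, a subunit of a GABA receptor (107.5, 75.9 and 72.5 against 52.7, 37.0 and 33.8), KRT6B, PTP4A3 and C5orf56, with log2FC of -1.04, -1.01, -1.06 and -1.04. Among the higher DEGs at few reads was MGLL, which encodes the lipase that cleaves monoacylglycerols (13, 8.63 and 11.1 against 25.8, 21.7 and 26.0). The other low-count DEGs were EPSTI1, HKDC1, HSD17B2, KRT20, FGGY, LINC00511, PDE4A, CCDC103, WASHC1, AZIN1-AS1, OLIG1 and SOSTDC1, which were lower, and ZNF559, PTPRG, ALOX12P2, LRP2BP, PCF11-AS1, ZDHHC11 and SNORA101B, which were higher.

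Hypoxia-inducible and glycolytic genes fell together. Of 36 genes tested in this list, 18 fell and none rose by limma, against 7.29% lower and 4.63% higher over all genes tested. This and the other lists were chosen with earlier results of these data known, so the shares describe these data only. The log2FC was negative for 33 of the 36, whether or not they passed, and the median was -0.32, against 0.004 for all genes tested. The list held the DEGs NDRG1, TMEM45A and ANGPTL4. STC1, a secreted glycoprotein hormone known as a hypoxia target, fell from 799.7, 791 and 837 adjusted reads to 483, 452 and 516 (log2FC -0.74 ± 0.07, adjusted p = 2.83e-12). The carbonic anhydrase gene CA9 fell from 225, 229.5 and 214 to 139, 134 and 115 (log2FC -0.79 ± 0.19). PDK1, a kinase that restrains entry of pyruvate into mitochondria, fell from 151.0, 162 and 178 to 101.1, 97.3 and 111 (log2FC -0.66 ± 0.16). None of these 3 genes overlapped between the conditions. Of the enzymes of glycolysis, ALDOC (log2FC -0.92), LDHA (-0.38), PGK1 (-0.34), ENO1 (-0.34), ALDOA (-0.25) and GPI (-0.22) fell, as did PFKFB3 (-0.54), which makes an activator of glycolysis. The oxygen sensor gene EGLN3 (-0.52) and the collagen hydroxylase gene P4HA1 (-0.40) fell as well.

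The other 18 members of the list did not pass. VEGFA had 375, 373 and 356 adjusted reads with CDDP and 370.5, 377 and 363 with the combination (log2FC 0.01 ± 0.10), and the glucose transporter gene SLC2A1 had 330.1, 325 and 304 against 312, 368 and 319.6 (log2FC 0.06 ± 0.10). GAPDH had a log2FC of 0.13. The median deviation of the list from the mean of the 6 libraries was 0.15, 0.15 and 0.19 (log2) in the CDDP libraries and -0.12, -0.17 and -0.19 in the combination libraries, so that the shift was present in each library. In limma-voom on recovered reads 22 members were lower and none higher with the authors' sizes, and 18 lower and 1 higher with library totals, with medians of -0.32 and -0.27. The letters ACGTG or GCGTG stood in the promoter windows of 13 of 15 members that fell and of 15 of 17 that did not pass, among those with a window, against 70.3% of 9762 genes tested.

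**Figure D3:**
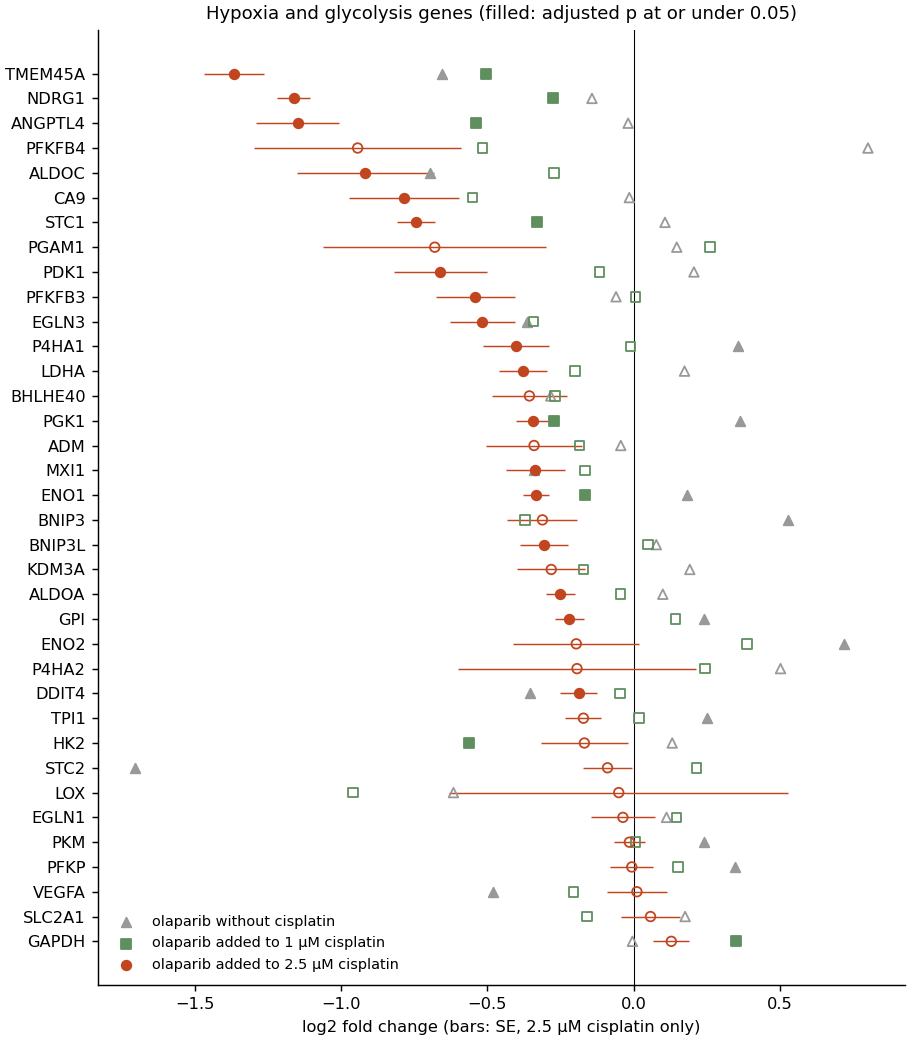
Log2 fold change for olaparib in the 36 hypoxia and glycolysis genes tested, added to 2.5 µM cisplatin (red circles, with SE), to 1 µM cisplatin (green squares) or without cisplatin (grey triangles), with filled symbols for an adjusted p of 0.05 or below. With 2.5 µM cisplatin 33 of the 36 genes lie left of 0, whereas without cisplatin filled triangles lie on both sides.

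Genes of epithelial differentiation and of secreted protease inhibitors also fell, again against 7.29% of all genes. In the epidermal differentiation and S100 list, 8 of 18 genes tested fell and 1 rose, with a median log2FC of -0.31. S100A4, a calcium-binding protein linked to cell motility, fell from 1433, 1532 and 1492 adjusted reads to 851, 860.4 and 819 (log2FC -0.82 ± 0.06, adjusted p = 1.55e-14). PI3, the elastase inhibitor elafin, fell from 2079, 2069 and 2183 to 1349, 1323 and 1367 (log2FC -0.65 ± 0.06). Neither gene overlapped between the conditions. S100A6 (log2FC -0.40) and S100A2 (-0.38) fell too, and S100A10, the partner of annexin A2, rose (0.35). Of 20 serpins and other protease inhibitors, 7 fell and none rose (median -0.25), among them SERPINA3, PI3, SPINT2 (-0.46) and SLPI (-0.41). In the keratin list 4 of 16 fell and none rose, with a median of -0.08. They were KRT19 (-0.48), KRT8 (-0.66), KRT6B and KRT10 (-0.32). The list of epithelial and mesenchymal state genes had 3 lower and 1 higher of 17. TGFBI, an extracellular matrix protein induced by TGF-beta, fell from 218.5, 255 and 276.5 to 121.0, 147.6 and 109.6 (log2FC -0.99 ± 0.12). VIM and the tight junction gene CLDN4 (-0.26) fell, and TJP1, another tight junction gene, rose (0.27).

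Of the proteins that bind insulin-like growth factors, IGFBP5 fell from 135, 113.6 and 137 to 78.8, 51.4 and 71.2 (log2FC -0.94 ± 0.18) and IGFBP4 from 536, 491 and 494 to 309, 299 and 356 (log2FC -0.66 ± 0.07), beside IGFBP3. IGFBP2 (-0.18 ± 0.10) and IGFBP6 (-0.27 ± 0.30) did not pass. This family was looked at after its values were seen.

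Counts in lists of lipid, signalling and immune genes were smaller, and several were near the shares over all genes tested, of which 7.29% fell and 4.63% rose. Of 18 LXR targets and lipid handling genes 5 fell and none rose. PLIN2, which coats lipid droplets, fell from 543, 527 and 531 adjusted reads to 322, 283 and 279 (log2FC -0.86 ± 0.10). ANGPTL4, FASN (-0.42) and SCD (-0.15), which make fatty acids or, for ANGPTL4, restrain their release, were others. Of 25 genes of cholesterol synthesis 3 fell, among them FDFT1 (-0.17). Of 17 NF-kB targets 3 fell, TNFAIP2 (-0.83), IER3 (-0.27) and NFKBIA (-0.26). Of 15 genes of MHC class I presentation 4 fell, among them TAPBP (-0.33), HLA-C (-0.29) and B2M (-0.18). HLA class I genes resemble each other in sequence and their reads are uncertain. Of 34 interferon-stimulated genes 4 fell, BST2 (-0.63), IFITM3 (-0.19), IFITM1 (-0.31) and EPSTI1, while the median was 0.02. None of the genes in these 5 lists rose. In limma-voom on recovered reads, 5, 3, 4, 4 and 6 members of the 5 lists were lower with the authors' sizes, in the order given, and 3, 1, 4, 2 and 4 with library totals, while 0, 0, 0, 1 and 1 and then 0, 1, 0, 1 and 1 were higher.

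The next lists are likewise to be read against 7.29% lower and 4.63% higher over all genes tested. Of 34 immediate early and MAPK feedback genes 4 fell and none rose, IER5 (log2FC -0.47), IER2 (-0.48), PHLDA1 (-0.52) and IER3. In the TGF-beta list TGFBI and ID3 (-0.45) of 24 genes fell, and in the BCL2 family MCL1 (-0.25), BAD (-0.31) and BIK (-0.60) of 17 fell. Both metallothioneins that passed, MT1X (-0.56) and MT2A (-0.21) of 3 tested, were lower. Of 26 NRF2 and glutathione genes 5 fell, including GSTP1 (-0.29), TALDO1 (-0.29), AKR1C3 (-0.56) and FTH1 (-0.25), and 2 rose. Heat shock genes moved both ways, with 5 of 23 lower, HSPA1A (-0.45) and HSPB1 (-0.23) among them, and 3 higher, among them HSP90AA1 (0.27) and HSPH1 (0.22). HSPA1A has a nearly identical neighbour, and its reads are uncertain. None of the 10 genes of the EGF receptor family list passed, EGFR itself standing at a log2FC of 0.15 (adjusted p = 0.056). In the list of drug efflux and platinum transport genes, LRRC8D, a subunit of the anion channel through which CDDP can enter cells, rose (0.39) and the other 12 did not pass. Among aryl hydrocarbon receptor targets AHR (0.39) rose, of 6 tested.

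**Figure D4:**
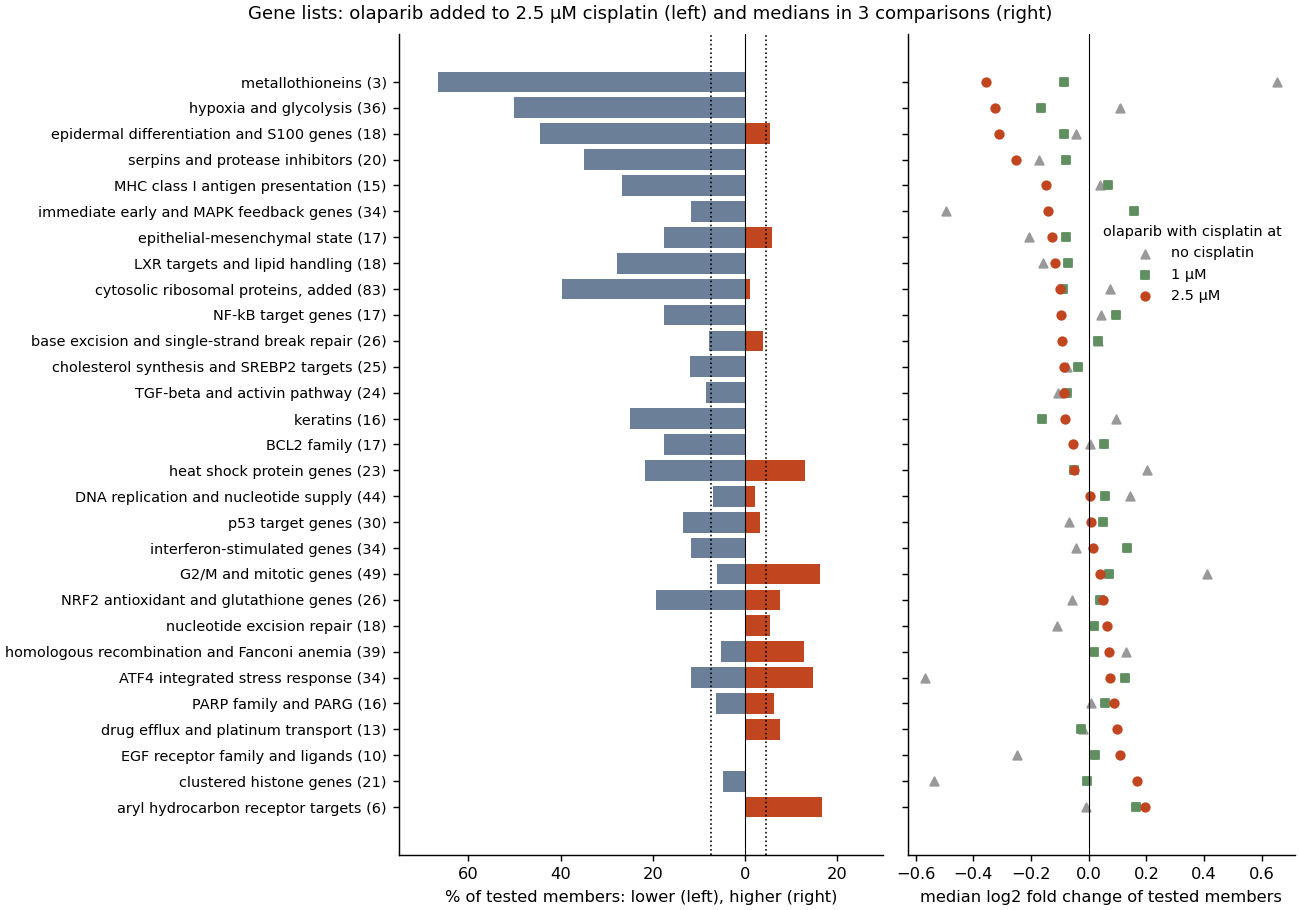
For each gene list, with the number of members tested in brackets, bars show the percentage of members lower (left) or higher (right) at an adjusted p of 0.05 or below for olaparib added to 2.5 µM cisplatin, with dotted lines at 7.29% and 4.63%, the shares over all genes tested. The right panel shows the median log2 fold change of each list for olaparib with no cisplatin (triangles), with 1 µM (squares) and with 2.5 µM cisplatin (circles), and hypoxia and glycolysis genes stand at -0.32 with 2.5 µM and at 0.11 with none.

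Of the direct targets of olaparib, PARP1 did not pass and PARP2 rose by a small amount. PARP1 had 1230.0, 1123 and 1223 adjusted reads with CDDP and 1276, 1229 and 1140.0 with the combination (log2FC 0.03 ± 0.07, adjusted p = 0.869), and the 2 conditions overlapped. PARP2 rose from 778, 818 and 832 to 966, 954 and 949.6 (log2FC 0.24 ± 0.07, adjusted p = 0.02). PARP2 did not pass in limma without CDDP replicate 1 or without any 1 replicate of the combination (largest adjusted p = 0.0916). PARG, which removes poly(ADP-ribose) chains, had a log2FC of 0.03 (adjusted p = 0.935). In the PARP family list PARP2 rose and ADPRHL2, another hydrolase of ADP-ribose, fell (-0.35), of 16 tested. These counts were near the shares over all genes tested, of which 4.63% rose and 7.29% fell.

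Genes of homologous recombination and the Fanconi anemia pathway rose in 5 of 39 cases and fell in 2, where 4.63% of all genes tested rose and 7.29% fell. BRCA2, a core factor of homologous recombination, rose from 735, 677 and 616 adjusted reads to 969, 963 and 934 (log2FC 0.50 ± 0.08, adjusted p = 5.53e-06). BRCA1 rose from 434, 465 and 399 to 566, 511 and 587 (log2FC 0.36 ± 0.08, adjusted p = 0.00182). Neither gene overlapped between conditions. RAD50 (0.33), XRCC2 and RBBP8 also rose, and RMI2 (-0.45) and UBE2T fell. In limma-voom on recovered reads 6 members were higher and 3 lower with the authors' sizes, and 10 higher and 2 lower with library totals, under which 1448 of all 13012 genes were higher. Of 26 genes of base excision and single-strand break repair, TDG rose (0.50) and HMGB1 (-0.36) and APEX1 (-0.27) fell. Of 18 genes of nucleotide excision repair, the pathway that removes CDDP adducts, 1 rose and the other 17 did not pass. Among 30 p53 targets 4 fell, PLK2 (-0.48), TRIAP1 (-0.36), SUSD6 (-0.43) and PHLDA3 (-0.30), and 1 rose, with a median log2FC of 0.01.

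In the replication list CLSPN, which encodes the checkpoint mediator claspin, rose from 1232, 1138 and 1151 adjusted reads to 1634, 1635 and 1719 (log2FC 0.50 ± 0.07), and MCM2 (-0.21), CDT1 (-0.22) and GINS2 (-0.28) fell, of 44 tested, against 4.63% higher and 7.29% lower over all genes. By limma-voom the split was 5 higher and 4 lower with the authors' sizes and 9 and 2 with library totals, so that it depended on both the test and the scaling. G2/M and mitotic genes rose in 8 of 49 cases and fell in 3, with a median log2FC of 0.04, beside the same shares over all genes. GTSE1, a protein of late cell cycle phases, rose from 301, 279 and 320.4 to 419, 381 and 399 (log2FC 0.41 ± 0.08). CKAP2L (0.63) and ASPM (0.32) rose, and AURKB (-0.38) and the mitotic kinase PLK1 (-0.48) fell. Of 21 clustered histone genes HIST1H2BK fell (-0.46) and none rose. ATF4 targets rose in 5 of 34 cases and fell in 4. CEBPB fell (-0.46), and SLC7A1 (0.22), PHGDH (0.30) and GARS (0.22) rose.

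The same drug was also added to 1 µM CDDP and to untreated cells, in libraries that the comparison above does not use. Added to 1 µM CDDP it changed 505 genes (3.88%), 25 of them DEGs (0.192%). Without CDDP it changed 2802 genes (21.5%), 226 of them DEGs (1.74%). The 25 DEGs at 1 µM were 16 without replicate 1 of olaparib + 1 µM cisplatin. Of the 1551 genes that passed with 2.5 µM CDDP, 146 (9.41%) passed in the same direction with 1 µM, which is 28.9% of the genes that passed there, and 36 passed in the opposite direction. With olaparib alone 209 (13.5% of the 1551 and 7.46% of the 2802) passed in the same direction and 403 (26.0% and 14.4%) in the opposite one. Of these 403, 291 were lower with 2.5 µM CDDP and higher without CDDP. Across the 13012 genes the log2FC with 2.5 µM had a Pearson r of 0.18 with that at 1 µM and of 0.002 with that of olaparib alone. Both were taken across genes, between comparisons that share no library, and describe these profiles only.

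Tested as a difference, the effect of olaparib with 2.5 µM CDDP differed from its effect without CDDP for 2623 genes (20.2%), and from its effect with 1 µM CDDP for 583 (4.48%). The second count was 370 without replicate 1 of olaparib + 1 µM cisplatin. Of the 57 DEGs, 26 differed in the first way and 12 in the second. The DEGs were chosen for a large effect with 2.5 µM CDDP, which is part of both differences. Their counts therefore cannot be set against the shares over all genes. NDRG1 had 1507 ± 10.01 adjusted reads (SD, n = 3) in untreated cells, 1366 ± 54.1 with olaparib, 1460 ± 32.5 with 1 µM CDDP, 1207 ± 76.1 with olaparib and 1 µM CDDP, 1301 ± 24.1 with 2.5 µM CDDP and 581 ± 10.8 with olaparib and 2.5 µM CDDP. The last of these 6 conditions was the lowest, and the difference of log2FC was -1.02 from no CDDP and -0.89 from 1 µM CDDP. ANGPTL4 had 325, 323, 326, 225, 208 and 93.9 in the same order of conditions, and its difference from no CDDP was -1.13. TMEM45A had 398, 256, 319, 227, 353 and 137, with differences of -0.71 and -0.86.

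Some genes, TMEM45A among them, changed in the same direction with olaparib in each setting, which does not mean by the same amount. IGFBP3 had 2300 ± 105 adjusted reads in untreated cells (SD, n = 3), 1464 ± 32.1 with olaparib, 1881 ± 157 with 1 µM CDDP, 1084 ± 77.9 with both, 1475 ± 59.3 with 2.5 µM CDDP and 644 ± 13.3 with both. The log2FC for olaparib was -0.65 without CDDP, -0.79 with 1 µM and -1.19 with 2.5 µM CDDP. Its differences of -0.54 from no CDDP and -0.40 from 1 µM CDDP both passed. MSMB (-1.03, -0.78 and -1.38) fell and GLYATL2 (0.84, 0.92 and 1.08) rose in all 3. In all, 40 genes passed in the same direction in the 3 comparisons, 30 lower and 10 higher. The lower ones included IGFBP4, IGFBP5, PLIN2, PI3 and KIT, a receptor tyrosine kinase gene with log2FC of -0.42, -0.54 and -0.68 in that order. The higher ones included GTSE1, ATF5, NUSAP1 and KIF4A.

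Some responses to olaparib alone were not seen on top of 2.5 µM CDDP. CHAC1, an enzyme that degrades glutathione and a known ATF4 target, had 345 ± 31.3 adjusted reads in untreated cells and 48.6 ± 8.99 with olaparib (SD, n = 3), but 347 with 2.5 µM CDDP and 350 with the combination. Its log2FC was -2.81 without CDDP and 0.01 with 2.5 µM CDDP, a difference of 2.82 (adjusted p = 2.96e-16). Olaparib alone lowered 30 of the 34 ATF4 targets (median log2FC -0.57), against 9.11% of all genes tested. The difference of effects passed as positive for 23 of them, against 8.14% of all genes. SLC7A11, the cystine transporter, had a log2FC of -1.59 without CDDP and 0.39 with 2.5 µM. The G2/M list had a median of 0.41 with olaparib alone, and the difference of effects passed as negative for 26 of its 49 genes, against 12% of all genes. SNORA19, a small nucleolar RNA gene, had 54.6 adjusted reads in untreated cells, 256 with olaparib, 240 with 2.5 µM CDDP and 142 with the combination, a difference of log2FC of -2.96. The method reads transcripts near their poly(A) tail, and which RNA gave the reads of SNORA19 was not examined. TUBA1C, an alpha-tubulin, had 4527, 7788, 6324 and 5532 in the same order of conditions, a difference of -0.97. HINT1 (-1.12) and STMN1 (-0.97), which encodes the microtubule regulator stathmin, were the others of the 5 genes with the smallest p for this difference.

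Against 1 µM CDDP, the 5 genes with the smallest p were NDRG1, H2AFZ, PRRC2C, PRPF38B and PNN. H2AFZ, the histone variant H2A.Z, had a log2FC of -0.68 ± 0.06 with 2.5 µM CDDP and 0.03 with 1 µM. PRPF38B and PNN, genes of pre-mRNA splicing, had log2FC of 0.32 and 0.48 with 2.5 µM and of -0.51 and -0.25 with 1 µM, and PRRC2C had 0.49 and -0.19. The direction of these 3 was opposite at the 2 doses, and the difference of effects was 0.83, 0.72 and 0.69. Hypoxia and glycolysis genes had 7 of 36 lower with 1 µM CDDP (median -0.17), against 2.03% of all genes. Without CDDP 9 were higher and 7 lower (median 0.11), against 12.4% and 9.11%. The difference of effects between 2.5 µM and no CDDP passed as negative for 20 of them and as positive for 2, against 12% and 8.14% of all genes.

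The direction of change was related to the length of genes. Protein-coding genes were grouped by the span of the gene on the genome (GENCODE release 44). Of 2167 genes spanning up to 10 kb, 2.58% rose and 13.2% fell when olaparib was added to 2.5 µM CDDP. Of 398 genes spanning over 300 kb, 8.79% rose and 1.76% fell. The median log2FC went from -0.07 to 0.16 between these groups, with -0.03, 0.02 and 0.08 in the groups between. The median span was 63.2 kb for the 580 genes that rose, 19.5 kb for the 917 that fell and 33.6 kb for all 11824. In each CDDP library the shortest genes stood above the mean of the 6 libraries (0.03 to 0.06 on the log2 scale) and the longest below it (-0.05 to -0.06), and in each combination library the order was reversed (-0.03 to -0.04 and 0.08 to 0.09). CDDP itself, against untreated cells, had medians of 0.11 in the shortest and -0.42 in the longest group, a comparison that shares the CDDP libraries. In limma-voom on recovered reads the shares in the shortest group were 4.43% higher and 17.7% lower with the authors' sizes and 6.37% and 13.1% with library totals, and those in the longest group were 13.6% and 2.01%, and 17.8% and 1.51%.

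**Figure D5:**
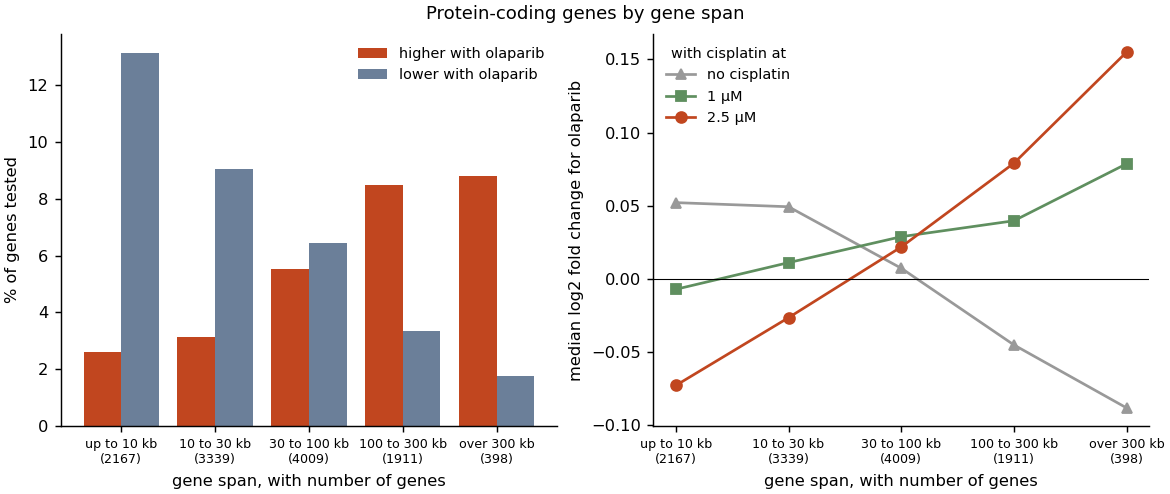
Left, percentage of protein-coding genes tested that rose (red) or fell (blue) with olaparib added to 2.5 µM cisplatin, by the span of the gene. Right, median log2 fold change for olaparib in the same groups of genes with no, 1 µM or 2.5 µM cisplatin, which runs upwards with span at 2.5 µM (-0.07 to 0.16) and downwards without cisplatin (0.05 to -0.09).

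From the shortest to the longest group the median level over the 6 libraries was 186, 172, 178, 153 and 66.3 adjusted reads. Level was thus lowest in the longest group but did not fall steadily with span. With olaparib alone the medians went the other way, from 0.05 in the shortest to -0.09 in the longest group, and with 1 µM CDDP from -0.01 to 0.08. Cytosolic ribosomal protein genes, which are short and which were added as a list after their values were seen, fell in 33 of 83 cases and rose in 1, with a median log2FC of -0.10. Over all genes tested 7.29% fell and 4.63% rose, and in the shortest group 13.2% fell and 2.58% rose. RPS27A (-0.59) and RPL13A (-0.49) were among those that fell, and both have processed pseudogenes that can take their reads. By limma-voom 36 fell and 4 rose with the authors' sizes, where 17.7% of the shortest group fell and 4.43% rose. With library totals 30 fell and 6 rose, where 13.1% of the shortest group fell and 6.37% rose. The share of all reads in these genes was 7.16% to 7.32% in the combination libraries and 7.69% to 7.88% in the CDDP libraries. The ratio of the authors' scaling size to the reads was 1.03 to 1.04 in the former and 0.995 to 1.003 in the latter, and the share of MALAT1, a nuclear RNA, was 0.0497% to 0.0557% and 0.0372% to 0.0413%. Their part in the changes was not tested.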

How the data were processed

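RNA was sequenced from 54 libraries, of which the 27 of MDA-MB-468 cells entered the fits. By the paper's methods and the labels, the authors made 3′ mRNA libraries, aligned reads to hg38 and analysed them with edgeR. The submitters' processing notes also name CASAVA 1.8.2, FastQC, STAR and HTSeq. The deposited values are a signal: the authors scaled each gene's reads in edgeR to one normalised library size. This does not make the totals of adjusted reads equal. They were 5140429 to 5170487 in the combination libraries and 5322430 to 5362498 in those of 2.5 µM CDDP. Reads recovered by inverting the adjustment returned 100% of 1483380 values within a relative difference of 1e-06. The 27 libraries held 2070301 to 9268162 reads, and the number of reads sets the precision of low values. Columns of the authors' own fold changes and p-values against untreated parental cells were not used.

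Genes with at least 10 adjusted reads in at least 3 of the 27 libraries were kept, 13012 of 27470. limma 3.58.1 (R 4.3.3) was fitted to log2(value + 1) with a mean for each of 9 conditions and a trended variance (18 residual degrees of freedom). This test replaced the count test of the paper, since the values are not whole reads. Tests were two-sided, and p-values were adjusted by Benjamini-Hochberg over all genes kept. A DEG had an adjusted p at or under 0.05 and at least a 2-fold change. A gene that passed had the former alone, and differences of effects had no limit on the fold change. The fit was tested on simulated data. Promoters were searched with Python 3.11.15 and pandas 2.3.3, and figures were drawn with matplotlib 3.10.9. Of the gene names, 24243 matched current and 1013 older symbols. A further 2214 matched none.

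Values in every library were given for up to 10 higher and 16 lower DEGs with the largest change among those with a mean of at least 20 over the 6 libraries and no overlap, which gave 9 higher (all that met the rule) and 16 lower. Other DEGs could be named, and in each of 29 lists up to 4 members with the smallest p, PARP1, PARP2 and PARG, and the 5 genes with the smallest p for each difference of effects and a mean of at least 20. Members named beyond these, the IGFBP family and the ribosomal protein list were chosen after their values were seen. The comparison and the lists were chosen with earlier results of these data known. No mitochondrially encoded transcript was analysed here, and a few genes are not reported here. Alternatives were other pseudocounts, filters, samples and limits, limma-voom on recovered reads with 3 scalings, and leaving out each library. Scaling by library totals was added after seeing the data.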

Additional observations from a re-analysis of the deposited data

Results flagged for a closer look

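The effect of olaparib differed between settings for several of the 34 genes examined, that is, the 25 described in full and the genes with the smallest p for each difference of effects. The difference was tested in limma as a contrast of 4 conditions, with p-values adjusted across the whole set of tested genes and a threshold of 0.05. The values are differences of log2 fold change.

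Compared with its effect without CDDP, olaparib added to 2.5 µM CDDP had a more positive effect on SNAR-E (1.68), CSAD (1.24), ANXA2P3 (1.55), PLXNA2 (1.43), CHAC1 (2.82), PRRC2C (0.65), PRPF38B (0.53) and PNN (0.40). It had a more negative effect on TMEM45A (-0.71), VIM (-1.40), IGFBP3 (-0.54), NDRG1 (-1.02), ANGPTL4 (-1.13), SH3PXD2A-AS1 (-1.06), PADI3 (-0.85), KREMEN2 (-1.36), TUBA1C (-0.97), SNORA19 (-2.96), HINT1 (-1.12), STMN1 (-0.97) and H2AFZ (-1.10). CHAC1 had fallen with olaparib alone, and TUBA1C, SNORA19, HINT1 and STMN1 had risen with it. In all, 21 of the 34 genes differed in this way. Of all genes tested 20.2% did, but the 34 were chosen by values that enter this difference.

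Compared with its effect on top of 1 µM CDDP, the effect was more positive for SNAR-E (1.57), PRRC2C (0.69), PRPF38B (0.83) and PNN (0.72). It was more negative for TMEM45A (-0.86), IGFBP3 (-0.40), NDRG1 (-0.89), PADI3 (-0.98), HINT1 (-0.38), STMN1 (-0.44) and H2AFZ (-0.70). Of all genes tested 4.48% differed from the effect with 1 µM CDDP. These 11 genes all differed from the effect without CDDP as well. The 2 sets of differences share the libraries of 2.5 µM CDDP and of the combination, and genes chosen by the smallest p of a difference had to differ.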

How the results depend on the processing

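Of the genes recomputed, PARP1, PARG and CHAC1, which did not pass, changed sign in fits that left out 1 library, and the others kept their direction under every alternative. The count of hypoxia and glycolysis genes that fell, 18, was 17 to 22 under other settings and 15 to 19 when 1 library was left out. Counts of DEGs depended on the settings. With no limit on the fold change, the counts were 1551 for olaparib added to 2.5 µM CDDP (602 higher, 949 lower), 505 with 1 µM CDDP and 2802 without CDDP. With a 2-fold limit added, the differences of effects numbered 269 from no CDDP and 24 from 1 µM CDDP. Without a filter on low values there were 101 DEGs (83 lower), and 66 with 1 µM CDDP. With only the 6 libraries compared in the fit, 2001 of 11962 genes passed by adjusted p alone, 40.6% of them higher. A minimum of 30 adjusted reads left 10 higher DEGs, and a pseudocount of 5 left 36 (11 higher, 25 lower). limma-voom on recovered reads gave 96 (33 higher, 63 lower), 972 genes that rose by adjusted p alone, 40 DEGs with 1 µM CDDP and 881 differences from 1 µM. With median-ratio scaling it gave 99 (32 and 67), 920 and 41. Library totals, chosen after seeing the data, gave 86 DEGs (38 higher) and 2405 genes by adjusted p alone (1448 higher). The cause of these shifts was not tested.

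Leaving out 1 library gave 47 to 78 DEGs, 13 to 29 higher (29 without CDDP replicate 1) and 33 to 63 lower (63 without replicate 1 of the combination). By adjusted p alone 1022 to 1431 genes passed (1022 without replicate 3 of the combination), 363 to 508 higher and 659 to 923 lower. The ranges were 16 to 33 with 1 µM CDDP, 191 to 230 without CDDP, and 2178 to 2524 and 370 to 617 for the differences of effects. These fits hold fewer libraries. Of the 25 genes described in full, 11 were DEGs under every alternative that gave a value. The other 14 lost the call under at least 1. With the replicate number as a block there were 55 DEGs (17 higher, 38 lower) and 1480 genes by adjusted p alone, but same-numbered libraries deviated with correlations of only -0.07 to 0.04, so the numbers were not taken as a pairing. The depth of 6174804 to 8222127 reads limits what can be said of genes under about 20 adjusted reads.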
